A study of Homo sapiens with 6 samples.

Results

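Genes that encode NF-kappaB subunits, feedback inhibitors of NF-kappaB and classical NF-kappaB targets were followed in colorectal cancer cells carrying a short hairpin RNA (shRNA) against BZW2. The set was 10 genes chosen by symbol and looked up in the deposited expression table by Ensembl identifier, where an identifier had to have 1 row: the subunit genes NFKB1, NFKB2, RELA and RELB, the feedback genes NFKBIA, TNFAIP3 and BIRC3, the chemokine genes CXCL1 and CXCL8, and the adhesion gene ICAM1. Of these 10 genes, 9 had values in at least 1 cell line and 8 had values in all 3 lines, out of 13021 identifiers with 1 row, of which 10875 were listed in all 3 lines. CXCL1 was blank in SW480. ICAM1 (ENSG00000090339), which encodes a leukocyte adhesion receptor, had no row under its identifier in the table used, and its expression was not analysed here.

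NF-kappaB proteins are dimeric transcription factors that IkappaB inhibitors hold in the cytoplasm of resting cells. Signals from receptors for TNF, interleukin-1 or microbial products activate the IKK kinases, which mark IkappaB for destruction, so that dimers such as that of the RELA and NFKB1 products enter the nucleus; a separate route through the kinase MAP3K14 processes the NFKB2 product and releases dimers with RELB. Many target genes encode inhibitors of the pathway itself, which ends the response, while others encode chemokines that attract neutrophils, and in the gut epithelium the pathway is known for linking inflammation to tumour growth.

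The BZW2 shRNA libraries came from HCT116 (HCT116WT in the sample titles), HT29 and SW480 cells stably infected with a lentivirus expressing a BZW2 shRNA, and the libraries they were set against came from the same 3 lines infected with a non-targeting shRNA. All are established human colorectal cancer lines, infected cells had been kept under puromycin selection (1 µg/ml), and the sample titles name 1 BZW2 hairpin (SH2) in every line. Total RNA gave 1 library per line and treatment, so spread could be measured only among lines, and repeat cultures of a line were not analysed here. The aim stated with the data was to find genes and pathways that change when BZW2 is depleted.

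BZW2, an eIF5-related regulator of translation initiation, stood at 8.69% of the non-targeting level in HT29, 13.5% in SW480 and 17.6% in HCT116. The HCT116 library with BZW2 shRNA stood apart from the others: it held 2187373 reads over listed genes where the other 5 libraries held 5078001 to 9317444, and 129 of its listed genes were at 0 reads. The log2 ratios of the HCT116 pair over all genes had an SD of 1.58, against 0.67 in HT29 and 0.70 in SW480. They rose with the GC content of the transcript (Spearman rho = 0.66 over 11950 genes, against 0.31 in HT29 and −0.06 in SW480). Which library of the pair carries that trend was not tested. HCT116 log2 ratios are therefore given also after a correction for GC content and length, and estimates across lines for the genes of the set also without HCT116. For BZW2 itself (36.9% GC) the HCT116 log2 ratio was −2.47 before and −1.01 after that correction. The corrected BZW2 values were −3.07 in HT29 (−3.51 before) and −2.98 in SW480 (−2.85 before). Of the epithelial markers, EPCAM, CDH1, KRT8, KRT18, KRT19 and CDX2 were listed in all 3 lines, and KRT20 and VIL1 had no row under their identifiers. CDH1, the E-cadherin gene, was at 46.4% of the non-targeting level in HCT116 (corrected log2 ratio −1.16), at 58.1% in HT29 and at 32.7% in SW480. EPCAM was at 69.4%, 85.1% and 81.7% in the same order of lines, and CDX2 at 266% (corrected log2 ratio 0.41), 57.1% and 121%. The keratin genes KRT8, KRT18 and KRT19 were at 401%, 408% and 511% in HCT116 (corrected log2 ratios 0.95, 0.995 and 1.14), against 70.5 to 124% in the other 2 lines. The part of such shifts in the results below was not tested. Of the leukocyte, fibroblast and endothelial markers only COL1A1 had values, at 10 to 26 reads per library in HCT116 and SW480. In such bulk RNA, fewer cells of a kind and less RNA per cell cannot be told apart.

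The stretches below are NF-kappaB recognition sequences found upstream of genes of the set, shown because such sites are the textbook link between NF-kappaB and its targets. They come from RefSeq promoter windows (GRCh38.p14), read on the strand of the gene, and capitals mark bases covered by a match. A stretch is printed only where its matches end before the annotated gene start. The matches of NFKB2, TNFAIP3 and ICAM1 did not meet this rule and are not printed.

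NFKB1, chr4:102501295-102501328, plus strand: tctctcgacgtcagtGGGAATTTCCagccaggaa
NFKBIA, chr14:35404806-35404845, minus strand: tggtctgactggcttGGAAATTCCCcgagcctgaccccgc
BIRC3, chr11:102317270-102317373, plus strand: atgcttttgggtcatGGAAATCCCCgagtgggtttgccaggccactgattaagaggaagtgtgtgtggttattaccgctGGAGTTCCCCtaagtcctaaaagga
CXCL1, chr4:73869299-73869339, plus strand: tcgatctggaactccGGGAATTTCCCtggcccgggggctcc
CXCL8, chr4:73740463-73740501, plus strand: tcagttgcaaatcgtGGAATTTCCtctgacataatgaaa

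The search covered 250 bases before each start on both strands with 2 overlapping motifs, the kappaB consensus of 10 bases and GGAANTTCC. The promoter table held 9 of the 10 genes, with RELB unmatched. ICAM1 included, a match to either motif lay in 9 of the 13 windows of these genes, and 8 genes had at least 1, while among all 34943 promoter windows 10.351% held a match (9.948% the consensus and 0.824% GGAANTTCC). NFKB1, NFKBIA, CXCL1, CXCL8 and ICAM1 held GGAANTTCC, NFKB2, TNFAIP3 and BIRC3 held matches to the consensus alone, and the 2 windows of RELA held neither. Matches describe these letters only, and binding was not measured.

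NFKB1 was the only one of the 8 genes measured in every line whose level was higher with BZW2 shRNA in all 3 lines. Of all 10875 genes listed in every line, 22.3% were higher in all 3, so 1 gene of 8 does not stand out from that share. NFKB1 (ENSG00000109320, chr4:102501329-102617302) encodes the precursor of the p50 subunit, which binds DNA mostly as a partner of RELA. In HCT116 it stood at 72.0 CPM with BZW2 shRNA (141 reads) and 36.8 CPM with non-targeting shRNA (232 reads), where CPM is the read count scaled to library size, with TMM factors between the 2 libraries of a line. In HT29 it stood at 83.9 CPM with BZW2 shRNA (753 reads) and 56.8 CPM with non-targeting shRNA (529 reads), and in SW480 at 60.4 CPM with BZW2 shRNA (376 reads) and 31.7 CPM with non-targeting shRNA (158 reads). The BZW2 shRNA library was the higher one each time, at 196% of the non-targeting level in HCT116 (95% counting interval 158 to 242%), 148% in HT29 (132 to 166%) and 191% in SW480 (158 to 231%). These intervals are exact Clopper-Pearson intervals and cover counting error between 2 libraries only. Percentages are of the scaled reads alone. Log2 ratios add a small prior count of 2 to both libraries, which draws those of low counts toward equality, so the 2 measures differ for genes with few reads. Among all genes of a line ordered by their ratio, NFKB1 lay at percentile 85.2 in HT29, 94.0 in SW480 and 73.6 in HCT116. Its log2 ratio was 0.65 in HCT116 after the GC content and length correction, against 0.96 before, and changed little in HT29 (0.52 against 0.56) and SW480 (0.97 against 0.92).

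The ratios of NFKB2, RELA and RELB were above equality in HCT116 and below it in HT29 and SW480, where the counting intervals of NFKB2 in HT29 and RELB in SW480 included equality. NFKB2 (ENSG00000077150, chr10:102394110-102402529) encodes the precursor of p52, the subunit of the noncanonical route. In HCT116 it was at 177 CPM with BZW2 shRNA (346 reads) and 56.2 CPM with non-targeting shRNA (354 reads), a ratio of 315% (271 to 366%). In HT29 it was at 8.92 CPM with BZW2 shRNA (80 reads) and 10.5 CPM with non-targeting shRNA (98 reads), a ratio of 84.8% (62.3 to 115%), and in SW480 at 34.7 CPM with BZW2 shRNA (216 reads) and 68.8 CPM with non-targeting shRNA (343 reads), a ratio of 50.4% (42.3 to 59.96%). HCT116 and SW480 thus lay on opposite sides of equality with counting intervals that did not reach it, while the HT29 interval did.

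RELA (ENSG00000173039, chr11:65653596-65663094), which encodes the main activating subunit p65, followed the same order of lines. Its level was 42.4 CPM with BZW2 shRNA (83 reads) and 17.8 CPM with non-targeting shRNA (112 reads) in HCT116, a ratio of 239% (177 to 320%). It was 24.0 CPM with BZW2 shRNA and 30.3 CPM with non-targeting shRNA in HT29 (79.2%, 66.0 to 94.9%), and 14.9 CPM with BZW2 shRNA and 24.5 CPM with non-targeting shRNA in SW480 (61.0%, 46.1 to 80.6%). RELB (ENSG00000104856, chr19:45001430-45038198), the partner of p52, had the largest ratio of the 9 genes in HCT116. There it stood at 37.8 CPM with BZW2 shRNA (74 reads) and 7.30 CPM with non-targeting shRNA (46 reads), a ratio of 518% (354 to 766%). In HT29 it stood at 9.59 CPM with BZW2 shRNA and 15.5 CPM with non-targeting shRNA (62.02%, 46.9 to 81.6%), and in SW480 at 9.48 CPM with BZW2 shRNA and 11.04 CPM with non-targeting shRNA (85.9%, 58.5 to 126%).

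In HCT116, genes of high GC content as a class had high ratios, and NFKB2 and RELA lay within the range of that class. Their transcripts hold 62.4% (NFKB2), 57.1% (RELA) and 65.4% GC (RELB). In HCT116 the 1299 genes with a median GC content of 62.04% had a median log2 ratio of 1.26 and quartiles of 0.50 and 1.91, and NFKB2 at 1.65 lay inside that range. RELA at 1.23 lay inside the quartiles of its own GC class (0.27 to 1.74), and RELB at 2.30 lay above the upper quartile of its class (1.93). After correction for GC content and length the HCT116 log2 ratios were 0.36 for NFKB2, 0.15 for RELA and 0.85 for RELB, so that none of them was 2-fold. The corrected values in SW480 were −0.90 for NFKB2 and −0.67 for RELA, close to the uncorrected −0.98 and −0.70.

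**Figure D1:**
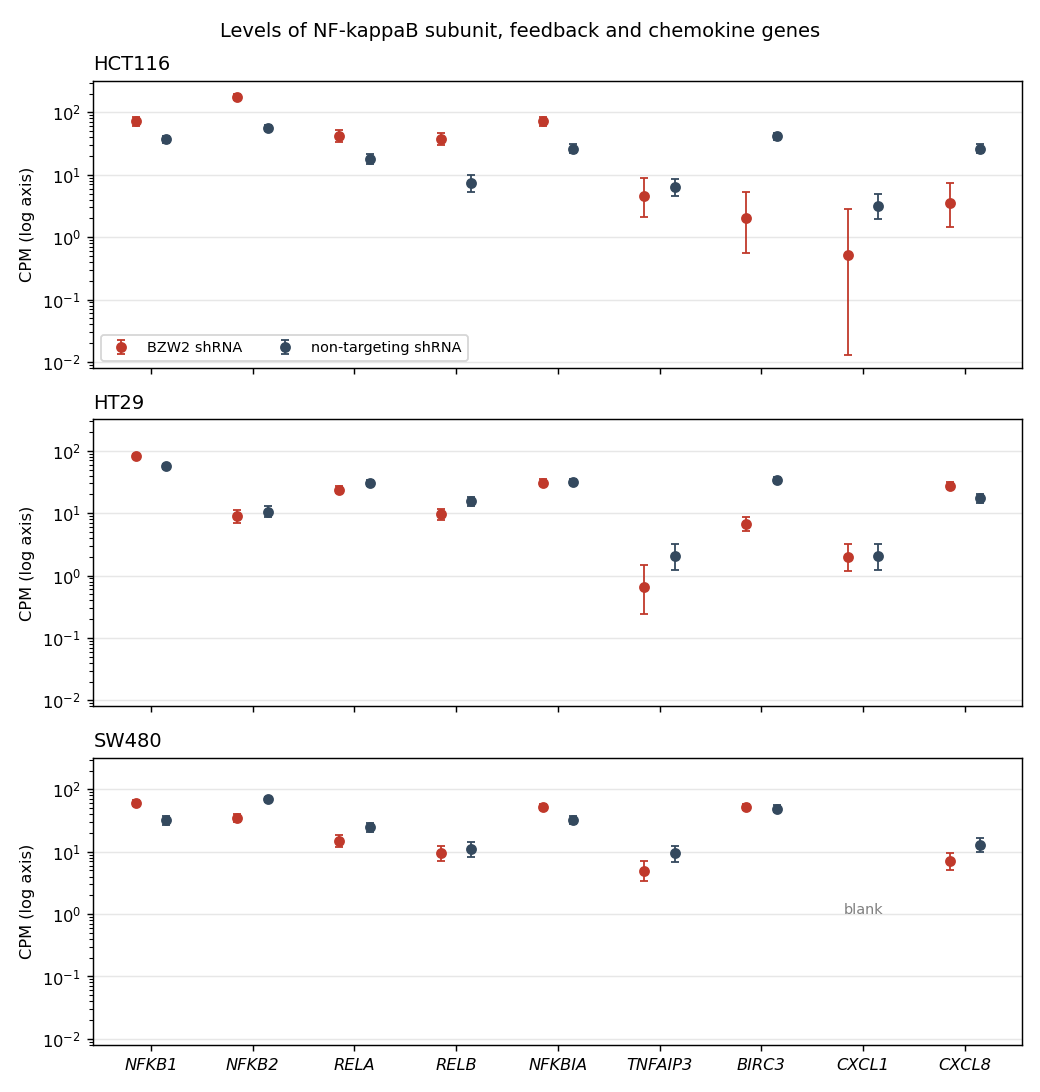
Level of each gene as CPM on a log axis, in the library with BZW2 shRNA (red, left) and with non-targeting shRNA (dark blue, right) of each line. Points are single libraries, bars are exact 95% Poisson intervals of the reads and show counting error only, and CXCL1 is blank in SW480. The red point of NFKB1 is the higher of its pair in every panel, and the red point of BIRC3 is far below its pair in HCT116 and HT29 but not in SW480.

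The make-up of the subunit pool differed between lines and shifted with the hairpin. Levels were set per kilobase of the longest transcript so that genes could be compared, and REL, the remaining subunit gene, was added to the 4 subunit genes of the set. NFKB1 made up 57.2% of the 5-gene sum with BZW2 shRNA and 39.9% with non-targeting shRNA in HT29, and 42.3% with BZW2 shRNA and 18.2% with non-targeting shRNA in SW480. In HCT116 its share was 17.8% with BZW2 shRNA and 25.3% with non-targeting shRNA. NFKB2 took the largest share in both HCT116 libraries (52.1% with BZW2 shRNA, 46.2% with non-targeting shRNA) and in the SW480 library with non-targeting shRNA (47.3%), but 29.1% in the SW480 library with BZW2 shRNA, below NFKB1. In HT29 the NFKB2 share was low in both libraries, at 7.27% with BZW2 shRNA and 8.83% with non-targeting shRNA.

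The ratio of NFKB1 to NFKB2 within a library, which does not depend on how libraries are scaled, moved in different directions. In SW480 it was 1.46 with BZW2 shRNA and 0.385 with non-targeting shRNA (per kilobase), a change of 3.78-fold (95% counting interval 2.91 to 4.90). In HT29 it was 7.87 with BZW2 shRNA and 4.51 with non-targeting shRNA, a change of 1.74-fold (1.26 to 2.42), and in HCT116 it was 0.341 with BZW2 shRNA and 0.548 with non-targeting shRNA, a change of 0.622-fold (0.477 to 0.810). The GC content of the 2 transcripts differs (50.1% in NFKB1, 62.4% in NFKB2), and in HCT116 the corrected log2 ratio was larger for NFKB1 (0.65) than for NFKB2 (0.36), the reverse of the uncorrected order.

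**Figure D2:**
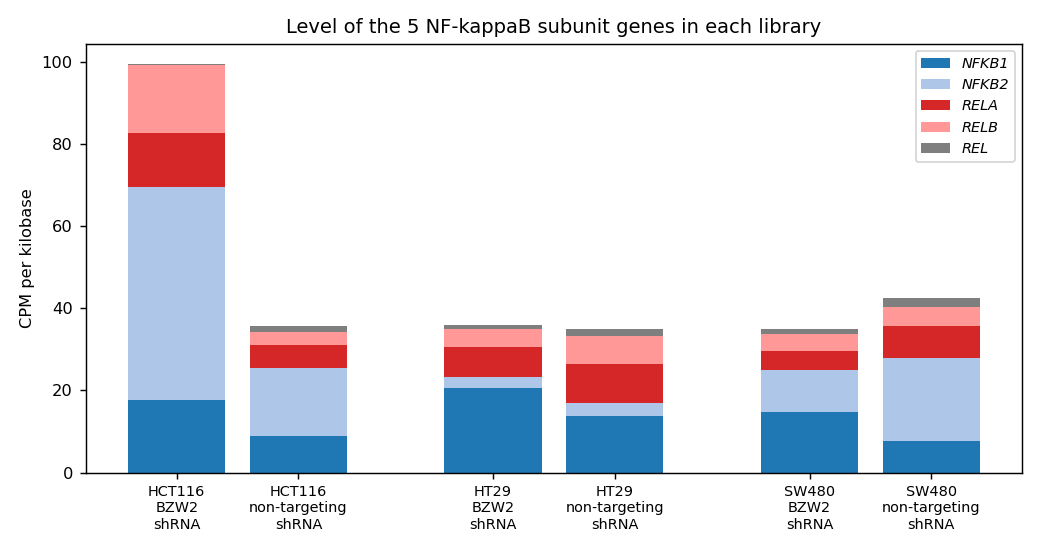
Stacked levels of the 5 NF-kappaB subunit genes in CPM per kilobase of the longest transcript, 1 bar per library, with the BZW2 shRNA library left of the non-targeting shRNA library of each line. NFKB2 reaches 51.8 CPM per kilobase with BZW2 shRNA and 16.4 with non-targeting shRNA in HCT116, and the NFKB1 segment is taller with BZW2 shRNA in all 3 lines.

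Of the feedback genes, NFKBIA was higher with BZW2 shRNA in HCT116 and SW480 and level in HT29. NFKBIA (ENSG00000100906, chr14:35401511-35404749) encodes IkappaB-alpha, the inhibitor that NF-kappaB itself induces to end a response. It stood at 72.6 CPM with BZW2 shRNA (142 reads) and 26.3 CPM with non-targeting shRNA (166 reads) in HCT116, and at 52.2 CPM with BZW2 shRNA (325 reads) and 32.3 CPM with non-targeting shRNA (161 reads) in SW480. The ratios were 276% (219 to 347%) in HCT116 and 162% (133 to 196%) in SW480. In HT29 the level was 31.0 CPM with BZW2 shRNA (278 reads) and 31.3 CPM with non-targeting shRNA (292 reads), a ratio of 98.9% (83.6 to 117%). After GC content and length correction the log2 ratio in HCT116 was 0.75, against 1.45 before, and 0.61 in SW480, against 0.69 before. Set against RELA in the same library, NFKBIA was 2.65-fold higher with BZW2 shRNA than with non-targeting shRNA in SW480 (1.88 to 3.73), while the corresponding changes were 1.15-fold (0.791 to 1.69) in HCT116 and 1.25-fold (0.973 to 1.60) in HT29, with intervals that include no change.

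TNFAIP3 was the only gene of the 8 that was lower with BZW2 shRNA in all 3 lines, on few reads. Of all 10875 genes listed in every line, 21.1% were lower in all 3, so 1 gene of 8 does not stand out from that share. TNFAIP3 (ENSG00000118503, chr6:137867188-137883312) encodes A20, a ubiquitin-editing enzyme that shuts off signalling above IKK. In HCT116 it stood at 4.598 CPM with BZW2 shRNA (9 reads) and 6.35 CPM with non-targeting shRNA (40 reads). In HT29 it stood at 0.669 CPM with BZW2 shRNA (6 reads) and 2.04 CPM with non-targeting shRNA (19 reads), and in SW480 at 4.98 CPM with BZW2 shRNA (31 reads) and 9.43 CPM with non-targeting shRNA (47 reads). The BZW2 shRNA library was the lower one each time. The ratio was 72.5% in HCT116, with an interval of 30.9 to 152% that does not fix a direction, 32.8% in HT29 (10.7 to 85.4%) and 52.8% in SW480 (32.4 to 84.9%). After GC content and length correction its HCT116 log2 ratio was −0.62, against −0.43 before.

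BIRC3 had the lowest ratios of the set in HCT116 and HT29 and no such difference in SW480. BIRC3 (ENSG00000023445, chr11:102317450-102339403) encodes cIAP2, a ubiquitin ligase that carries TNF receptor signals to IKK, restrains the noncanonical route and is itself an NF-kappaB target. In HCT116 it had 4 reads with BZW2 shRNA (2.04 CPM) and 259 with non-targeting shRNA (41.1 CPM), and in HT29 61 reads with BZW2 shRNA (6.80 CPM) and 317 with non-targeting shRNA (34.0 CPM). These are ratios of 4.97% (1.35 to 12.9%) and 19.98% (14.9 to 26.4%), at percentiles 0.807 and 0.714 of all genes of their line. In SW480 it had 327 reads with BZW2 shRNA (52.6 CPM) and 244 with non-targeting shRNA (49.0 CPM), a ratio of 107% (90.6 to 127%).

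BIRC3 has a low GC content (34.8%), a class of 203 genes whose median log2 ratio was −1.98 in HCT116 and −0.61 in HT29. BIRC3 itself was at −4.04 in HCT116 and −2.29 in HT29, below the lower quartiles of that class (−2.77 and −1.13). After correction it stood at −2.10 in HCT116 and −1.61 in HT29, still more than 2-fold lower in both. BIRC2, the paralog that lies beside it on chromosome 11 (chr11:102347211-102378670) and has 38.0% GC, was taken as a second point of reference after its values had been seen. BIRC2 was at 18.0% of the non-targeting level in HCT116, at 57.6% in HT29 and at 99.3% in SW480, the same order of lines as BIRC3. The log2 ratio of BIRC2 was −2.45 before and −0.99 after correction in HCT116, and −0.79 before and −0.39 after in HT29. The level of BIRC3 over that of BIRC2, per kilobase, was 0.0765 with BZW2 shRNA and 0.276 with non-targeting shRNA in HCT116, a change of 0.277-fold (0.0714 to 0.776). It was 0.0755 with BZW2 shRNA and 0.218 with non-targeting shRNA in HT29, a change of 0.347-fold (0.255 to 0.466), and the change in SW480 was 1.08-fold (0.889 to 1.31).

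**Figure D3:**
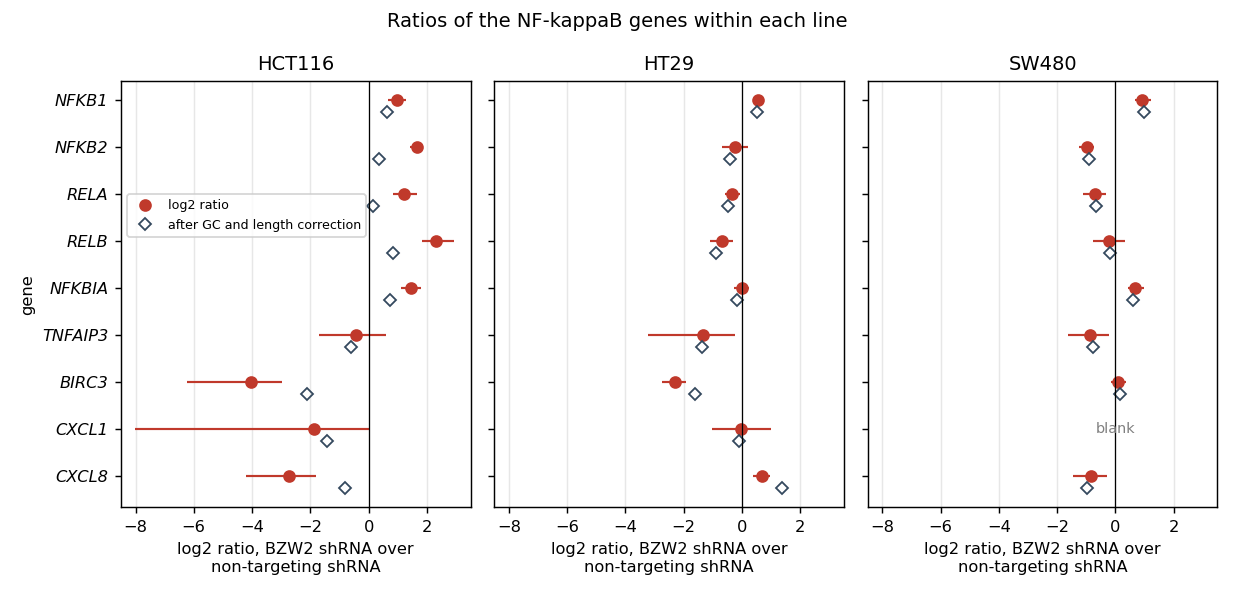
Log2 ratio of BZW2 shRNA over non-targeting shRNA for each gene in each line (red points, with 95% counting intervals as bars) and the same ratio after correction for GC content and length (open diamonds). In HCT116 the corrected values of NFKB2, RELA, RELB and NFKBIA lie under 1 and that of BIRC3 at −2.10, while in SW480 correction moves no gene far.

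CXCL8 differed in direction between lines, and CXCL1 had too few reads to fix a direction. CXCL8 (ENSG00000169429, chr4:73740506-73743716) encodes interleukin-8, a neutrophil attractant and a classical RELA target. In HCT116 it had 7 reads with BZW2 shRNA (3.58 CPM) and 166 with non-targeting shRNA (26.3 CPM), a ratio of 13.6% (5.38 to 28.6%). In HT29 it had 248 reads with BZW2 shRNA (27.6 CPM) and 161 with non-targeting shRNA (17.3 CPM), a ratio of 160% (131 to 196%). In SW480 it had 44 reads with BZW2 shRNA (7.07 CPM) and 64 with non-targeting shRNA (12.8 CPM), a ratio of 55.1% (36.6 to 82.1%). Each of these intervals leaves out equality, so the HT29 library pair lay opposite to both others beyond counting error. CXCL8 has the lowest GC content of the set (33.4%), and correction took its log2 ratio to −0.80 in HCT116, against −2.72 before, to 1.37 in HT29, against 0.67 before, and to −0.96 in SW480, against −0.83 before.

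CXCL1 (ENSG00000163739, chr4:73869393-73871242), which encodes another neutrophil attractant, was near the lower limit of the table. It had 1 read with BZW2 shRNA and 20 with non-targeting shRNA in HCT116, a ratio of 16.1% whose interval of 0.389 to 101% just includes equality. Its log2 ratio, drawn toward equality by the prior count, was −1.42 after the GC content and length correction, against −1.88 before. In HT29 it had 18 reads with BZW2 shRNA and 19 with non-targeting shRNA, a ratio of 98.4% (48.7 to 198%). The change of CXCL8 over CXCL1 could not be fixed at this depth, at 0.843-fold in HCT116 (0.0997 to 39.9) and 1.63-fold in HT29 (0.781 to 3.39). Listed genes had at least 21 summed reads in a line, and why CXCL1 is blank in SW480 was not tested.

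**Figure D4:**
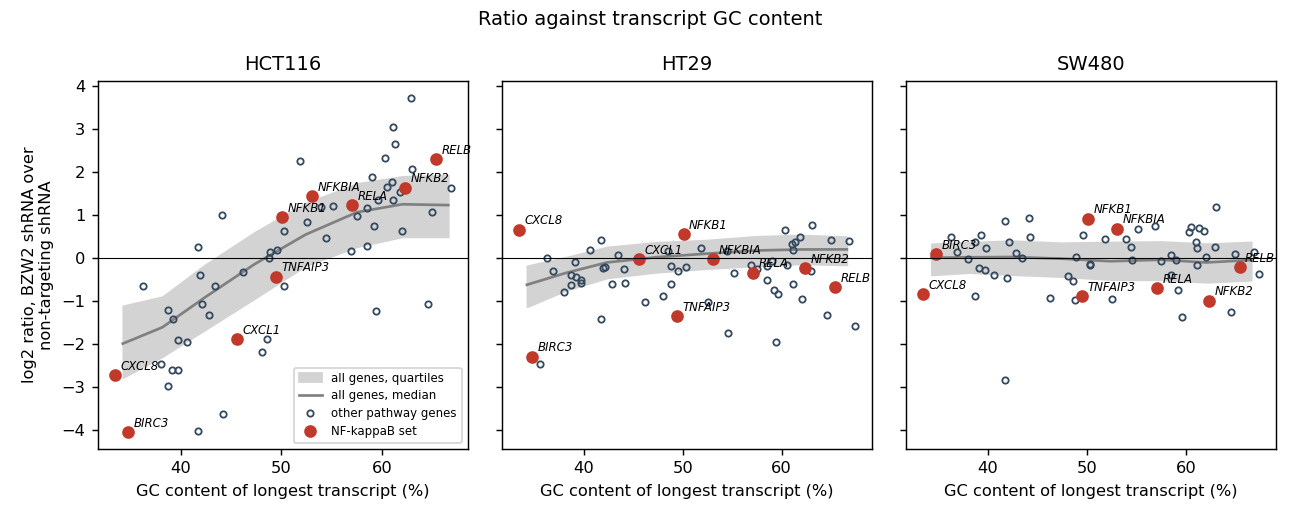
Log2 ratio of BZW2 shRNA over non-targeting shRNA against the GC content of the longest transcript, for the NF-kappaB set (red, named), the other pathway genes (open) and all genes (gray line, median, and band, quartiles, in classes of GC content). The gray line climbs across the HCT116 panel, climbs less in HT29 and is nearly flat in SW480. BIRC3 lies below the band in HCT116 and HT29 and inside it in SW480.

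A gene counted as 2-fold within a line when its log2 ratio, with the prior count, was at least 2-fold and the higher library held at least 5 CPM. Background shares are over the genes of a line that reach 5 CPM, 10104 in HT29, 11155 in SW480 and 11363 in HCT116. Of the set 7 genes reached it in HT29 and 8 in each of the others. In HCT116, 4 of those 8 genes were 2-fold higher (NFKB2, RELA, RELB and NFKBIA), against a background of 26.8%, and 2 were 2-fold lower (BIRC3 and CXCL8), against 28.8%. In HT29 none of 7 was 2-fold higher, against 3.74%, and 1 was 2-fold lower (BIRC3), against 6.17%. In SW480 none of 8 was 2-fold higher, against 4.98%, and none was 2-fold lower, against 7.36%. With the GC content and length correction, HCT116 had 0 genes 2-fold higher and 1 lower (BIRC3), and HT29 had 1 higher (CXCL8). The background shares above are for uncorrected ratios. Shares of all genes with the correction are not given here, so these corrected counts cannot be set against a background. The median log2 ratio of the listed genes was 0.96 in HCT116, where all genes had −0.077, and 0.15 there after the GC content and length correction. It was −0.23 in HT29 and −0.46 in SW480, where all genes had 0.0061 and −0.011.

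Across lines, each gene was tested with limma on log2 of the deposited value plus 1, in a model of treatment and cell line that takes the 3 lines as replicates. None of the 8 genes tested passed a Benjamini-Hochberg adjusted p under 0.05 over all 10875 genes, where 0% of all genes passed. Without adjustment limma put 766 lower and 717 higher of the 10875 genes under a p of 0.05. Of the 8 genes of the set, 1 lower (BIRC3) and 1 higher (NFKB1) were among them. edgeR on the recovered reads also called 0 genes, with 1287 at an unadjusted p under 0.05, and DESeq2 called 244 genes, none of them of this set. The fold changes below are on the scale of log2(value + 1), which understates those of low genes.

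NFKB1 had a log2 fold change of 0.85 ± 0.37 (SE, n = 3 lines; limma adjusted p = 0.363) and was higher in 3 of 3 lines, with 0.77 without HCT116. BIRC3 had −2.08 ± 0.70 (limma adjusted p = 0.315) and was lower in 2 of 3 lines. Without SW480, the line in which BIRC3 was not lower, its estimate was −3.19 and limma called it (adjusted p = 0.0128). That fit called 137 of all 10875 genes, against 0 in the main fit. Over the other alternatives the adjusted p of BIRC3 ran from 0.0574 with DESeq2 to 0.9997 with limma without the cell line term, and without HCT116 the estimate was −1.07. TNFAIP3 stood at −0.90 ± 0.53 and was lower in 3 of 3 lines (limma adjusted p = 0.428; −1.15 without HCT116), and NFKBIA stood at 0.74 ± 0.43 (limma adjusted p = 0.423), or 0.37 without HCT116.

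The estimates of the remaining subunits lay within their standard errors, and that of CXCL8 was not far above its own. NFKB2 was at 0.18 ± 0.53, RELA at 0.10 ± 0.49 and RELB at 0.51 ± 0.62, with limma adjusted p of 0.877, 0.927 and 0.682. All of them turned negative without HCT116 (−0.58, −0.49 and −0.42) and after the GC content and length correction (−0.31, −0.33 and −0.08). CXCL8 was at −0.95 ± 0.64 (limma adjusted p = 0.473), or −0.06 without HCT116. A missed threshold does not show that these genes are alike in both treatments.

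The wider pathway was read from a list of 74 further genes, of which 55 had values in at least 1 line and 48 in all 3. None of the 48 passed in limma. Of the 48, 4 lower and 4 higher ones had an unadjusted limma p under 0.05, where 766 lower and 717 higher of all 10875 genes did. In all 3 lines 11 of the 48 were higher and 9 lower, where 22.3% of all genes were higher and 21.1% lower in all 3 lines. The median log2 ratio of the list was −0.29 in HT29, 0.086 in SW480 and 0.27 in HCT116, or −0.035 in HCT116 after the GC content and length correction. Of 50 pathway genes that reached 5 CPM in HCT116, 18 were 2-fold higher and 15 were 2-fold lower, against backgrounds of 26.8% and 28.8%. Of 49 in HT29, 0 were higher and 6 lower, against 3.74% and 6.17%, and of 49 in SW480, 1 was higher and 3 lower, against 4.98% and 7.36%.

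IL1RAP and RBCK1 were the only pathway genes at least 2-fold lower in every line, and none was 2-fold higher in every line. IL1RAP encodes the shared signalling chain of the interleukin-1 receptor. In HCT116 it had 2 reads with BZW2 shRNA and 151 with non-targeting shRNA (4.27%, 0.512 to 15.7%). In HT29 it had 99 reads with BZW2 shRNA and 276 with non-targeting shRNA (37.2%, 29.3 to 47.0%), and in SW480 39 with BZW2 shRNA and 233 with non-targeting shRNA (13.4%, 9.29 to 18.9%). Its log2 fold change was −2.80 ± 0.58 (SE, n = 3 lines; limma adjusted p = 0.250), which ranked 26 by p among all genes. RBCK1 encodes HOIL-1, a subunit of the linear ubiquitin ligase that builds the platform for IKK. It stood at 40.03% of the non-targeting level in HT29, 42.0% in SW480 and 47.8% in HCT116, the last on 129 reads with BZW2 shRNA and 869 with non-targeting shRNA. Its log2 fold change was −1.17 ± 0.35 (limma adjusted p = 0.294), and both genes stayed over 2-fold lower in each line after the GC content and length correction. Of all 10875 genes, 80 (0.736%) were at least 2-fold lower and 109 (1%) at least 2-fold higher in all 3 lines.

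Other pathway genes are named because they had the highest mean level or the largest mean ratio of their role, and their HCT116 log2 ratios are given before and after the GC content and length correction. REL, the lymphoid-enriched subunit, was at 10.1% of the non-targeting level in HCT116 (3 reads with BZW2 shRNA and 96 with non-targeting shRNA), 64.98% in HT29 and 53.8% in SW480. The log2 ratio of REL was −2.96 before and −1.11 after correction in HCT116, and −0.61 before and −0.13 after in HT29. IRAK1, a kinase that relays interleukin-1 and Toll-like receptor signals, was at 172% in HT29, 231% in SW480 and 426% in HCT116 (log2 fold change 1.39 ± 0.39, limma adjusted p = 0.277), with 2.08 before and 0.80 after correction in HCT116. TAB1, the activator of the kinase MAP3K7, was at 161%, 155% and 532% in the same order of lines, with 2.34 before and 1.10 after correction. TAX1BP1, an adaptor that helps A20 terminate signalling, was at 54.5%, 75.2% and 21.7%, and correction left it near its value (−2.19 before and −2.23 after).

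Among the other inhibitors, NFKBIB, which encodes IkappaB-beta, was at 89.7% in HT29, 168% in SW480 and 322% in HCT116, where its log2 ratio was 1.67 before and 0.35 after correction. NFKBID, a nuclear IkappaB protein, was at 1707% in HCT116 on 53 reads with BZW2 shRNA and 10 with non-targeting shRNA (3.73 before and 2.38 after correction), and its intervals included equality in HT29 and SW480. CHUK, which encodes IKK-alpha, was at 100% in HT29 (log2 ratio 0.0054 before and 0.55 after correction) and 141% in SW480. In HCT116 CHUK was at 63.7%, and its direction turned with correction (−0.65 before and 1.08 after). LTBR, a receptor that feeds the noncanonical route, was at 78.4% in HT29, 161% in SW480 and 236% in HCT116 (1.22 before and 0.24 after correction).

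For IER3 and PLAU, the further targets named by the rule, the 2-fold values in HCT116 did not remain after correction. Of the other targets 2-fold higher there, GADD45B went from a log2 ratio of 1.35 to 0.066 with correction, but CFLAR went from 1.00 to 2.18. IER3, an early response gene, was at 88.6% in HT29, 106% in SW480 and 225% in HCT116 (1.17 before and 0.092 after correction). PLAU, the urokinase gene, was blank in HT29, at 137% in SW480 and at 230% in HCT116 (1.196 before and 0.33 after correction). The chemokine gene CCL20 was listed in HT29 alone, at 16.0% (12 reads with BZW2 shRNA and 78 with non-targeting shRNA, 7.92 to 29.5%), where CXCL8 was at 160%.

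**Figure D5:**
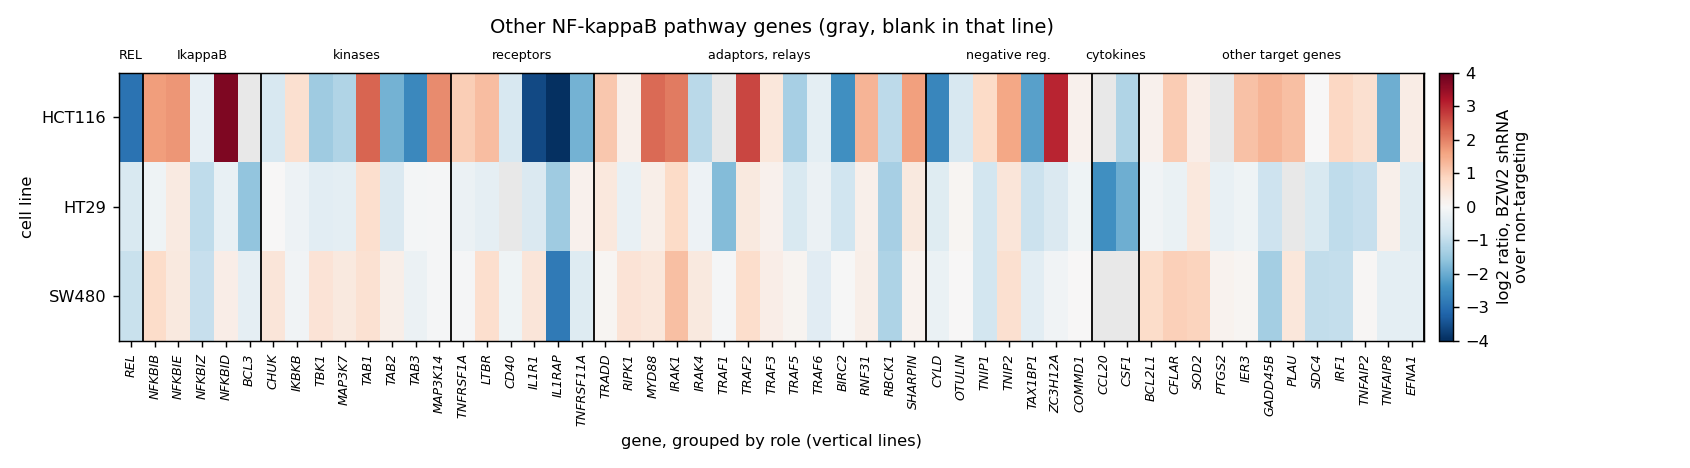
Log2 ratio of BZW2 shRNA over non-targeting shRNA of the other pathway genes with values, 1 column per gene grouped by role and 1 row per line (red, higher with BZW2 shRNA; blue, lower; gray, blank). IL1RAP and RBCK1 are blue in all 3 rows and IRAK1 is red in all 3, and over the 48 genes with values in every line 11 columns are red and 9 blue in all 3 rows.

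Genes whose 3 ratios lay closest to those of a member were found by Euclidean distance between log2 ratios in HCT116, HT29 and SW480, over 10875 genes. Closest to NFKB2 were ARID1A (distance 0.175), VIPR1 (0.175) and RUBCN (0.178). Closest to NFKBIA were RAB26 (0.0625), CAPN2 (0.0870) and PEPD (0.114). Closest to CXCL8 was PARM1 (0.0827), with ratios of −2.73, 0.67 and −0.91, followed at a larger distance by EDA (0.341) and ID2 (0.371). Distances rest on 3 ratios from single library pairs, taken before the GC content and length correction, and describe likeness only. That correction took the HCT116 log2 ratio from 1.65 to 0.36 for NFKB2, from 1.45 to 0.75 for NFKBIA and from −2.72 to −0.80 for CXCL8.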

How the data were processed

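Total RNA of 6 samples was sequenced. Per the submitters' processing notes, bcl2fastq 2.17, STAR 2.5.2b and DESeq were used with GRCh38; the gene counter, its annotation and the strand setting were not given in the sources used here. Reads of overlapping genes therefore cannot be told apart. The deposited table holds a normalised signal: the authors scaled the read count of each gene by a size factor, set separately in each line, and levels were compared within lines. Whole reads were recovered for 100% of values (tolerance 0.1 read). Of 13040 identifiers, 19 with repeated rows were left out. Symbols matched 13003 identifiers, and GENCODE 29 matched 13018 and gave position, longest transcript and GC content.

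The members and gene lists were chosen with earlier results of these data known. The main test was limma 3.58.1 (R 4.3.3; trended empirical Bayes, pseudocount 1, genes with a value of 1 or more in 3 libraries, two-sided, Benjamini-Hochberg) on the deposited values, with the cell line as pairing, taken from the labels; labels name no repeat cultures, so p-values measure spread among lines only. It left 2 residual and 7.26 prior degrees of freedom. Within lines, ratios are of TMM-scaled CPM (edgeR 4.0.16), with no test. Percentages and their intervals use no prior count, and log2 ratios use a prior count of 2. Alternatives included edgeR and DESeq2 1.42.0 on recovered reads, other scalings and a loess correction for GC content and length. The limma step was run on simulated data in which a changed gene changed alike in all 3 lines and no GC trend was set. That run does not show how the test performs where lines differ as they do here. Pathway genes are named if called by limma, at least 2-fold the same way in every line, or highest in mean CPM per kilobase or absolute mean log2 ratio in their role.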

Additional observations from a re-analysis of the deposited data

Results flagged for a closer look

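Genes with opposite directions in 2 lines, each with a counting interval that leaves out equality, were picked out, and the differences themselves were not tested because each line has 1 library per treatment. The log2 ratio of NFKB2 in HCT116 exceeded that in SW480 by 2.63, and that of RELA by 1.93, and RELA in HCT116 exceeded RELA in HT29 by 1.57. The log2 ratio of RELB in HCT116 exceeded that in HT29 by 2.98. For CXCL8 the HT29 value exceeded the HCT116 value by 3.39 and the SW480 value by 1.5005. All but the last of these contrasts include the HCT116 library pair, whose ratios followed GC content (Spearman rho = 0.66 over 11950 genes). After the GC content and length correction the pairs stood at 0.36 and −0.90 for NFKB2 and 0.15 and −0.67 for RELA (HCT116 and SW480; −0.47 for RELA in HT29), 0.85 and −0.88 for RELB (HCT116 and HT29), and 1.37 and −0.80 for CXCL8 (HT29 and HCT116; −0.96 for CXCL8 in SW480).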

How the results depend on the processing

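The count of genes called across lines, 0 in the main limma fit, ran from 57 to 338 with 1 line left out (57 without HT29, 137 without SW480, 338 without HCT116). It was 244 with DESeq2 (134 lower, 110 higher) and 2 with the GC content and length correction, and stayed 0 without the cell line term (no replicate block; 191 genes at an unadjusted p under 0.05), with edgeR and with limma-voom. The count of set members called was 0 to 1 with a line left out, and the 1 was BIRC3 without SW480. With a line left out, the log2 fold change ran from −0.58 to 0.74 for NFKB2, −0.49 to 0.49 for RELA and −0.42 to 1.09 for RELB, negative only without HCT116. With the GC content and length correction these were −0.31, −0.33 and −0.076; members 2-fold higher in HCT116 fell to 0, against 4, and 2-fold lower to 1, against 2, and 1 was 2-fold higher in HT29, against 0. A CPM minimum of 1 gave 2 members 2-fold lower in HT29, against 1, the added one being TNFAIP3. Shares of all genes with the correction or with that minimum are not given here, so these member counts have no background beside them. Across lines 89 other alternative values kept direction and side of the threshold and 1 (BIRC3) gained a call. Within lines 118 alternative ratios stayed inside the counting interval, 12 moved outside it, and 2 changed sign, both in HT29 with the deposited values and inside the interval (NFKBIA 0.011, against −0.016; CXCL1 0.0037, against −0.021). Library size alone as the scale moved the HCT116 median of all genes to −0.39, against −0.077. Single libraries limit every within-line value, and the smallest sum of a listed gene in a line was 21 reads.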

Other observations

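The following pathway genes were chosen after their values were seen. TRAF2, an adaptor of TNF receptors, was at 131% of the non-targeting level in HT29, 166% in SW480 and 655% in HCT116, and TNIP2, a partner of A20, at 141%, 156% and 292%. After the GC content and length correction their HCT116 log2 ratios were 1.32 for TRAF2, against 2.67 before, and 0.18 for TNIP2, against 1.54 before. TRAF1, an NF-kappaB target that binds TRAF2, was blank in HCT116, at 27.7% in HT29 (14.9 to 48.7%, 16 reads with BZW2 shRNA and 60 with non-targeting shRNA) and at 96.1% in SW480. In HT29 it was thus low beside BIRC3 (19.98%) and CCL20 (16.0%), while CXCL8 was at 160%. NFKBIZ, which encodes a nuclear IkappaB protein, was at 49.4% in HT29, 51.7% in SW480 and 79.5% in HCT116 (log2 ratio −0.092 after correction, against −0.32 before). IL1R1, the ligand-binding partner of IL1RAP, stood at 5.65% in HCT116 (2 reads with BZW2 shRNA and 114 with non-targeting shRNA), 66.3% in HT29 and 141% in SW480, where IL1RAP was at 13.4%, and its HCT116 log2 ratio was −2.98 after correction, against −3.62 before. SOD2, an antioxidant target gene, was at 120%, 135% and 184% in the order HCT116, HT29 and SW480 (HCT116 log2 ratio 1.79 after correction, against 0.27 before), with reads that cannot be told from those of an overlapping annotated gene.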
